A study of Mus musculus with 18 samples.

Results

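The 10 genes described here belong to cell junctions and blood vessels and were followed in microglia and macrophages of the injured mouse spinal cord: Gja1, Pecam1, Flt1, Kdr, Cdh1, Cdh5, Cldn5, Esam, Ecscr and Tie1. They were taken by symbol from the deposited gene counts, as 10 of 53465 listed genes, of which 25957 had any count. The 10 were selected on values of these data, with their levels in both cell types and their cytokine responses in macrophages already known, so those values are given here as a description and without a test. Tests are reported for cytokine responses in the microglia libraries and for other genes of named lists. The lists were also chosen with earlier results of these data known, so the p-values of their genes are no independent support.

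All libraries came from adult female C57BL/6J mice with a contusion of the thoracic spinal cord (SCI). At 48 h after injury the mice received an intraspinal injection of PBS (mice 1, 2 and 3), recombinant IL-13 (rIL-13; mice 5, 6 and 7) or recombinant IL-4 (rIL-4; mice 8, 9 and 10), and cells were collected 24 h later. Microglia (CD45low) and macrophages (CD45high), both CD11b+ and F4/80+, were sorted from each mouse, giving 6 groups of 3 libraries and 18 libraries in all. There was no uninjured group, and every group, PBS included, carried both the injury and an injection. The cDNA was made by SMART-seq2, which does not keep the strand and has no molecular identifiers. Values are CPM, counts scaled to a common library size after TMM, given in mouse order.

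Gap, adherens and tight junctions hold neighbouring cells together. Connexins form channels between cells, cadherins bind like cadherins on the next cell, and claudins seal the space between endothelial cells at the blood-spinal cord barrier. VEGF receptors and the angiopoietin receptor system control vessel growth. Most of the 10 genes are classed as endothelial, yet Gja1 is also abundant in astrocytes, Pecam1 and Flt1 are also found on leukocytes, and Cdh1 is an epithelial cadherin that is known in IL-4-treated macrophages too.

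In GRCm38, Gja1 (ENSMUSG00000050953.10) was at chr10:56377330-56402513 on the plus strand, Pecam1 (ENSMUSG00000020717.19) at chr11:106654217-106750628 on the minus strand and Flt1 (ENSMUSG00000029648.13) at chr5:147561604-147726011 on the minus strand. Kdr (ENSMUSG00000062960.10) was at chr5:75932827-75978458 on the minus strand, Cdh1 (ENSMUSG00000000303.12) at chr8:106603351-106670246 on the plus strand and Cdh5 (ENSMUSG00000031871.9) at chr8:104101625-104144511 on the plus strand. Cldn5 (ENSMUSG00000041378.1) was at chr16:18776847-18778262 on the plus strand, Esam (ENSMUSG00000001946.14) at chr9:37528078-37538319 on the plus strand and Tie1 (ENSMUSG00000033191.14) at chr4:118471191-118490061 on the minus strand. Ecscr carried the identifier ENSMUSG00000073599.9. Counts covered all exons of each gene. Cdh5 is overlapped on the opposite strand by Gm29682, which had 0 counts in every library, and Ecscr by 1700066B19Rik, which had 0 to 9 counts in the macrophage libraries and 0 to 74 in the microglia libraries. Reads of Ecscr and of 1700066B19Rik cannot be told apart by strand.

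Promoters are shown for the channel gene and the 2 VEGF receptors, because Flt1 and Kdr are receptors for the same ligand whose levels went in opposite directions in macrophages. RefSeq (GRCm38.p6) gave a promoter for 5 of the 10 genes (Gja1, Flt1, Kdr, Cldn5 and Tie1). The 250 bases before each start are printed 5′ to 3′ on the strand of the gene, with capitals marking GGAA or its reverse complement, the core letters bound by ETS factors: chr10:56377050-56377299 (plus) for Gja1, chr5:147726012-147726261 (minus) for Flt1 and chr5:75978456-75978705 (minus) for Kdr.
Gja1: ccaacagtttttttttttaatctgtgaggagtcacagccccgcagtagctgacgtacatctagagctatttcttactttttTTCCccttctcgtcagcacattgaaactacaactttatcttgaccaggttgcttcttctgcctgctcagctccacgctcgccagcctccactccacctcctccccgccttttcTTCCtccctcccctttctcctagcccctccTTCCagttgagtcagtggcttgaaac
Flt1: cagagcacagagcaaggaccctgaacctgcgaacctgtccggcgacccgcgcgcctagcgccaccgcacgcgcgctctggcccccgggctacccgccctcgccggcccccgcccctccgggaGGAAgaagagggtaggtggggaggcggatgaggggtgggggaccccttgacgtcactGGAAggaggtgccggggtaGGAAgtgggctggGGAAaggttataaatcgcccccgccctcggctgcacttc
Kdr: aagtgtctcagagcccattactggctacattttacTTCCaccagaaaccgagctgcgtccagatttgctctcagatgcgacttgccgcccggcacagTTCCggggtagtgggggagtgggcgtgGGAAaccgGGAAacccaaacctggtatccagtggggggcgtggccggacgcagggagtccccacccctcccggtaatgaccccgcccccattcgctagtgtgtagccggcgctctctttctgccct
These letters occurred 3 times before Gja1, 4 times before Flt1, 4 times before Kdr, 7 times before Tie1 and 0 times before Cldn5. They are common, since 93.4% of 32851 promoters of this length held at least 1. Searched on both strands, TTCNNNNGAA, the spacing that STAT6 prefers, was in 5.85% of all promoters and TTCNNNGAA, the spacing of other STAT proteins, in 7.02%. Neither was in any of the 5 promoters, which says only that these letters are not in these windows. The promoters of Flt1 and Kdr therefore did not differ in the number of GGAA cores.

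The libraries held 35961305 to 45849829 counts each. Marker lists put the cells beside their labels. The 8 microglia genes P2ry12, Tmem119, Sall1, Siglech, Gpr34, Olfml3, Fcrls and Cx3cr1 summed to 1257 to 7052 CPM in microglia and to 114.5 to 2031 CPM in macrophages. The 6 monocyte-derived macrophage genes, Ly6c2 and Ccr2 among them, summed to 1212 to 3118 CPM in macrophages and 163.2 to 615.7 CPM in microglia. A list of 24 other endothelial genes summed to 28.1 to 63.5 CPM in macrophages and to 1494 to 4050 CPM in microglia. Pericyte and fibroblast genes reached 232.3 to 7314 CPM in microglia against 2.97 to 25.7 CPM in macrophages, and astrocyte genes 43.4 to 223.4 CPM against 2.12 to 10.7 CPM. The libraries labelled microglia thus held RNA of endothelial genes at a level that the macrophage libraries did not approach. In bulk libraries of this kind, fewer cells of a type and less RNA per cell cannot be told apart.

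Levels of different genes were compared per kb of exon. In PBS macrophages the order ran from Ecscr at 4.38 ± 0.974 CPM per kb (mean ± SD, n = 3) and Kdr at 3.38 ± 0.448 down to Cdh5 at 0.119 ± 0.023 and Tie1 at 0.0716 ± 0.0206. The libraries of Ecscr and Kdr overlapped, as did those of Cdh1 and Cldn5, of Cldn5 and Pecam1, of Gja1 and Flt1, and of Flt1 and Esam. After rIL-4, Cdh1 led at 67.1 ± 40.3 CPM per kb, followed by Pecam1 at 35.6 ± 15, Gja1 at 23 ± 22.2 and Flt1 at 4.79 ± 2.22, with libraries of each overlapping those of the next. Tie1 was again lowest, at 0.0121 ± 0.0081. After rIL-13 the same 4 genes led in the same order, with Cdh1 at 46.6 ± 24.8 and Flt1 at 2.19 ± 0.329. The order in microglia was another: Cldn5 led in all 3 groups, at 361 ± 161 after PBS, 600.3 ± 204 after rIL-13 and 663 ± 91.4 after rIL-4, with no overlap with the next gene, Esam. Cdh1 was lowest in microglia after PBS (0.148 ± 0.186) and after rIL-13 (2.36 ± 1.11), and Kdr after rIL-4 (3.31 ± 0.286).

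**Figure D1:**
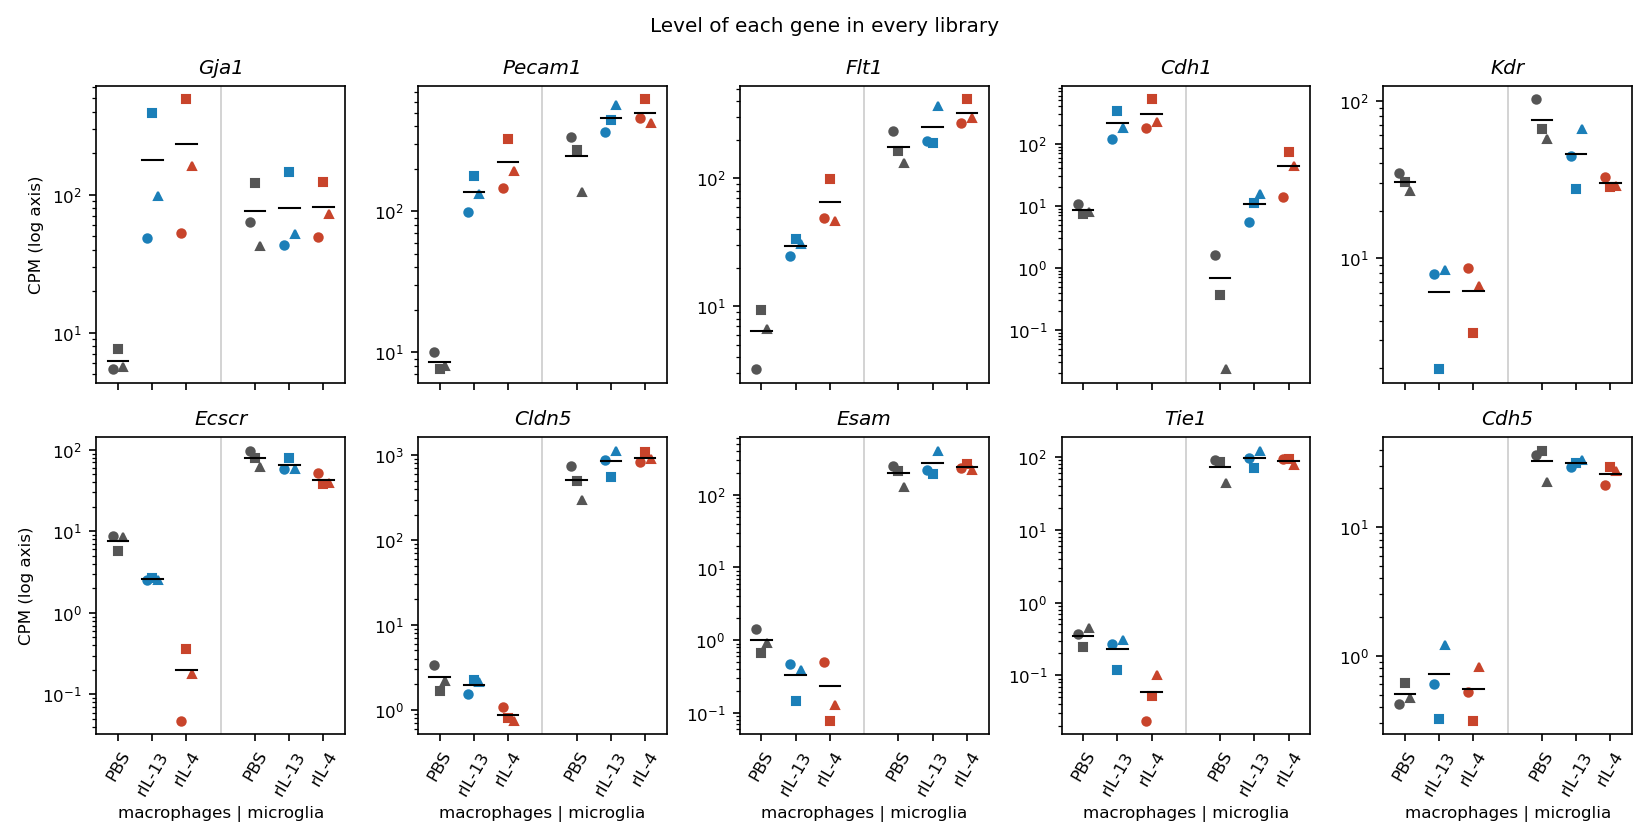
Level of each of the 10 genes in every library, in CPM on a log axis, with 1 panel a gene, the 3 macrophage groups on the left and the 3 microglia groups on the right of each panel. Circles, squares and triangles are the mice of a group in order, and black bars are group means. Gja1, Pecam1, Flt1 and Cdh1 were higher in every cytokine-treated macrophage library than in any PBS macrophage library, whereas Cldn5 was at most 3.39 CPM in any macrophage library.

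Gja1 encodes connexin 43, the most widespread gap junction channel. Its level in PBS macrophages was 5.43, 7.63 and 5.64 CPM in mice 1, 2 and 3. After rIL-13 it was 48.3, 391 and 98.1 CPM in mice 5, 6 and 7, and after rIL-4 it was 52.7, 491 and 163 CPM in mice 8, 9 and 10. All 6 cytokine libraries lay above the 3 PBS libraries, and mice 6 and 9 stood far above the others of their group. The log2 difference from PBS was 5.23 ± 0.95 (SE) after rIL-4, 37.6-fold, and 4.84 ± 0.94 after rIL-13, 28.7-fold. Without the macrophages of mice 6 and 9 it was 4.11 after rIL-4 and 3.58 after rIL-13, an alternative chosen after seeing the data.

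The height of Gja1 within a group went with other genes. The highest Gja1 of each macrophage group was in mouse 2, 6 or 9, as was the highest Flt1, and after the cytokines mice 6 and 9 also had the highest Pecam1 and Cdh1 and the lowest Kdr of their group. The same 3 mice had the highest sum of 7 neutrophil genes (S100a8, S100a9, Ly6g, Retnlg, Cxcr2, Mmp8 and Camp) in their group: 614.9, 1302 and 698.2 CPM after PBS, 433.8, 2885 and 393.1 CPM after rIL-13, and 159.2, 722.1 and 349.5 CPM after rIL-4. Ly6c2, a marker of recently arrived monocytes, was 60.4, 256.9 and 138.6 CPM after PBS, 32.4, 229.6 and 74.5 CPM after rIL-13, and 52.6, 203.5 and 76.2 CPM after rIL-4, again highest in these mice. None of the 7 neutrophil genes was at 0 in any macrophage library, and their part in the values of these 5 genes was not tested. The neutrophil sum was not higher after rIL-4 than after PBS, with 159.2 to 722.1 against 614.9 to 1302 CPM. Astrocyte genes summed to 5.58 to 10.7 CPM in PBS macrophages, 5.87 to 6.67 CPM after rIL-13 and 2.12 to 5.14 CPM after rIL-4, and their part in the Gja1 values was not tested. In microglia Gja1 was 63.6, 122 and 42.4 CPM after PBS, 43.1, 147 and 52.4 CPM after rIL-13, and 49.8, 124 and 72.3 CPM after rIL-4, with the highest value once more in mice 2, 6 and 9.

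**Figure D2:**
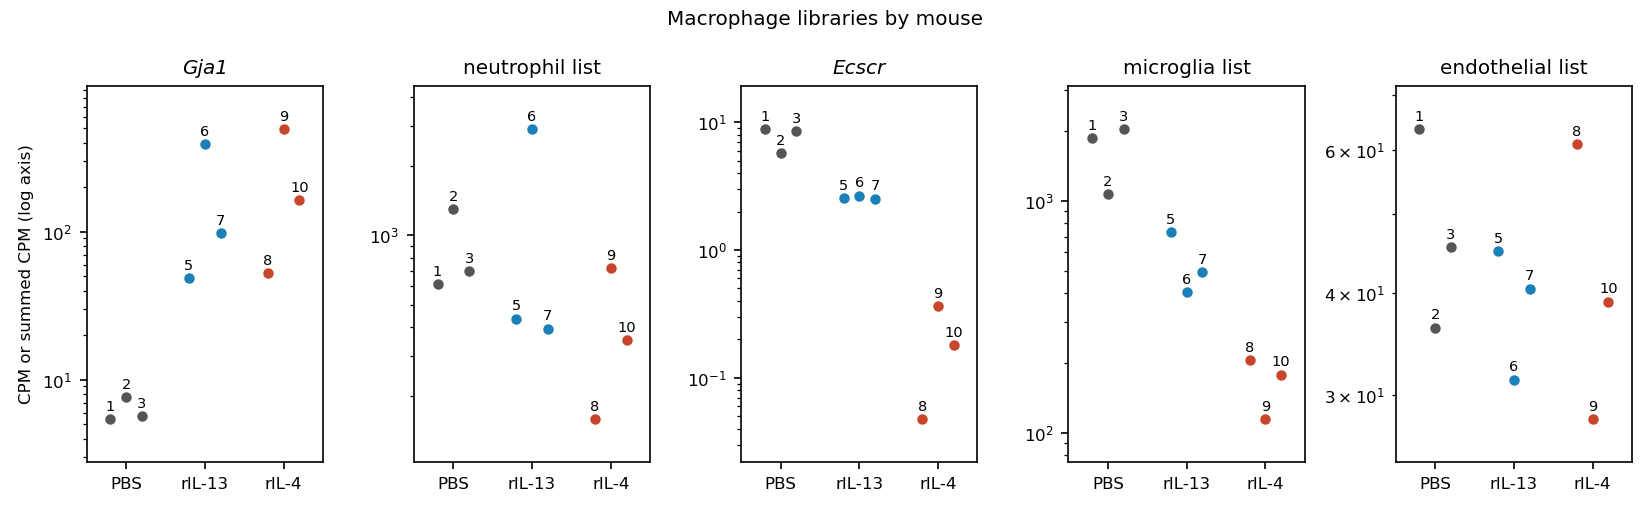
Macrophage libraries by treatment, as points numbered by mouse, for the CPM of Gja1 and Ecscr and the summed CPM of the neutrophil, microglia and endothelial lists, on log axes. Mice 2, 6 and 9 are highest in their group for Gja1 and for the neutrophil list, and the microglia list and Ecscr are both highest after PBS and lowest after rIL-4.

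Pecam1 (CD31) encodes an adhesion molecule of endothelial junctions, platelets and leukocytes. It was at 9.98, 7.53 and 7.95 CPM in PBS macrophages, at 98.2, 179 and 134 CPM after rIL-13 and at 146, 326 and 194 CPM after rIL-4. The groups of the cytokines overlapped each other and lay wholly above PBS. The log2 difference from PBS was 4.70 ± 0.34 after rIL-4, 26.0-fold, and 4.02 ± 0.33 after rIL-13, 16.2-fold. Platelet genes summed to 358 to 841.8 CPM in PBS macrophages, to 527.9 to 1515 CPM after rIL-13 and to 125.7 to 352.1 CPM after rIL-4. They were thus lower than PBS after rIL-4 but not after rIL-13, where mouse 6 had both the highest platelet sum and the highest Pecam1. After PBS, mouse 2 had the highest platelet sum and the lowest Pecam1. After rIL-4 the platelet sum was highest in mouse 10 and Pecam1 in mouse 9. The part of platelet genes in the Pecam1 values was not tested. Of these 9 platelet genes, only 3 passed the filter on low counts in macrophages, and Gp6 was at 0 in every macrophage library.

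Cdh1 encodes E-cadherin, the adherens junction protein of epithelia. PBS macrophages had 10.8, 7.29 and 8.01 CPM, rIL-13 macrophages 120, 339 and 180 CPM, and rIL-4 macrophages 179, 518 and 224 CPM. Again the PBS group stood apart and the cytokine groups overlapped. The log2 difference was 5.14 ± 0.51 after rIL-4, 35.2-fold, and 4.62 ± 0.50 after rIL-13, 24.6-fold. Without mouse 9 the rIL-4 difference of Cdh1 was 4.52. The 8 epithelial genes (Epcam, Krt8, Krt18, Krt19, Cldn3, Cldn4, Cldn7 and Esrp1) summed to between 0 and 1.64 CPM in all 18 libraries.

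The VEGF receptors went in opposite directions. Flt1 encodes VEGF receptor 1, which also binds placental growth factor and is carried by monocytes as well as endothelium. Its levels in macrophages were 3.22, 9.30 and 6.62 CPM after PBS, 24.8, 33.5 and 30.5 CPM after rIL-13 and 48.5, 99.2 and 46.3 CPM after rIL-4. The 3 groups did not overlap, with rIL-4 highest. The log2 difference from PBS was 3.34 ± 0.41 after rIL-4, 10.1-fold, and 2.22 ± 0.39 after rIL-13, 4.67-fold. Kdr encodes VEGF receptor 2, the main signalling receptor of endothelial cells. It was at 34.6, 30.3 and 26.5 CPM in PBS macrophages, at 7.92, 1.96 and 8.45 CPM after rIL-13 and at 8.66, 3.37 and 6.63 CPM after rIL-4. Both cytokine groups lay below PBS and overlapped each other. The log2 difference was −2.29 ± 0.49 after rIL-4, 4.89-fold lower, and −2.31 ± 0.49 after rIL-13, 4.96-fold lower.

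Other genes of the VEGF and angiopoietin pathway were counted after rIL-4. Of 11 genes listed, 8 could be tested in macrophages, and edgeR's quasi-likelihood test with Benjamini-Hochberg adjustment called 2 higher and 3 lower, at an adjusted p under 0.05, of which Vegfd and Tek were at or near 0 counts in the group where they were low. Over all 13606 genes tested, 6.77% were called higher and 7.2% lower. Pgf, placental growth factor and a ligand of Flt1, rose from 0.300 ± 0.083 to 10.8 ± 13 CPM (SD, n = 3; log2 5.15 ± 1.06, adjusted p = 0.0102), with 2.45 to 26.0 CPM in the rIL-4 libraries. Without mouse 9 its log2 difference was 3.41. Vegfd, a ligand of Flt4, had 5, 0 and 0 counts after PBS and 26, 93 and 45 after rIL-4. It entered the test only through the rIL-4 libraries, so its call is a description and supports nothing. The co-receptors Nrp2 (log2 −1.0 ± 0.15, adjusted p = 0.00176) and Nrp1 (log2 −1.30 ± 0.20, adjusted p = 0.0025) fell. The call was lost for Pgf without mouse 3 (edgeR, adjusted p = 0.0501). After rIL-13 the test called 0 of the 8, beside 4.19% of all genes. At an unadjusted p under 0.05 were 5 of the 8, beside 2433 of the 13606 genes, and DESeq2 called 3 (Nrp1, Nrp2 and Pgf).

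Ecscr encodes a small membrane protein of endothelial cells. It was at 8.79, 5.70 and 8.51 CPM in PBS macrophages, at 2.56, 2.67 and 2.53 CPM after rIL-13 and at 0.0476, 0.365 and 0.179 CPM after rIL-4. The 3 groups did not overlap, and the rIL-4 libraries held only 2, 14 and 7 counts. The log2 difference from PBS was −5.28 ± 0.51 after rIL-4, 38.8-fold lower, and −1.56 ± 0.41 after rIL-13. From the summed counts of 804 against 23, the ratio of PBS to rIL-4 was 40.1 (95% exact interval 26.5 to 63.6, counting error only). Without mouse 9 the log2 difference after rIL-4 was −6.07.

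Genes of microglia identity were lower in the same libraries. In macrophages, edgeR called 8 of 8 microglia-list genes lower after rIL-4, with Cx3cr1 (log2 −4.58 ± 0.30, adjusted p = 1.87e-05), Tmem119 (−3.71 ± 0.24, 1.87e-05), Fcrls (−3.76 ± 0.35, 0.00014) and Sall1 (−4.14 ± 0.54, 0.000951) at the lowest p. After rIL-13 it called 3 of 8 lower, Tmem119 (−1.66), Cx3cr1 (−1.93) and Fcrls (−1.72). Over all genes tested, 7.2% were called lower after rIL-4 and 1.66% after rIL-13. The microglia list summed to 1068 to 2031 CPM after PBS, 403 to 731.9 CPM after rIL-13 and 114.5 to 204.8 CPM after rIL-4, and none of its genes was at 0 in any macrophage library. The part of these genes in the Ecscr values was not tested.

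Cldn5, Esam, Tie1 and Cdh5 were at low levels in every macrophage library. Cldn5, the main claudin of the blood-brain barrier, was at 3.39, 1.68 and 2.20 CPM after PBS, 1.55, 2.26 and 2.11 CPM after rIL-13 and 1.07, 0.809 and 0.743 CPM after rIL-4. Only the rIL-4 group lay below the others, with a log2 difference from PBS of −1.47 ± 0.38 against −0.29 ± 0.36 after rIL-13, which was 0.02 without mouse 1. Esam, an immunoglobulin-like molecule of endothelial tight junctions, was at 1.44, 0.671 and 0.917 CPM after PBS, 0.472, 0.146 and 0.389 CPM after rIL-13 and 0.499, 0.0783 and 0.128 CPM after rIL-4. Both cytokine groups were below PBS, by a log2 difference of −2.07 ± 0.76 after rIL-4 and −1.58 ± 0.74 after rIL-13. Without mouse 8 the rIL-4 difference of Esam was −3.25. From 106 counts in PBS and 29 in rIL-4 macrophages the ratio for Esam was 4.19 (95% interval 2.76 to 6.56). In macrophages the pericyte and fibroblast genes summed to 11.5 to 25.7 CPM after PBS, 15.0 to 20.2 CPM after rIL-13 and 2.97 to 5.15 CPM after rIL-4. The part of RNA from such cells in the values of Cldn5, Esam and Tie1 was not tested.

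Tie1, the orphan partner of the angiopoietin receptor, had 13, 8 and 16 counts in PBS macrophages, 8, 4 and 11 after rIL-13 and 1, 2 and 4 after rIL-4. The rIL-4 libraries were lowest, and the ratio of PBS to rIL-4, from 37 against 7 counts, was 6.06 (95% interval 2.67 to 16.1). Cdh5, VE-cadherin of endothelial adherens junctions, had 15, 20 and 17 counts after PBS, 18, 11 and 44 after rIL-13 and 22, 12 and 32 after rIL-4. The groups overlapped, with a log2 difference of 0.14 ± 0.60 after rIL-4 and 0.53 ± 0.60 after rIL-13. Both differences of Cdh5 changed sign when 1 mouse was left out, to −0.24 after rIL-4 without mouse 10 and to −0.13 after rIL-13 without mouse 7. For Tie1 the log2 difference after rIL-4 was −2.52, and −3.11 without mouse 10.

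Counted over the 10 genes in macrophages, 4 had an adjusted p under 0.05 and were higher after rIL-4 (Gja1, Pecam1, Flt1 and Cdh1) and 4 were lower (Kdr, Ecscr, Cldn5 and Tie1), beside 6.77% of the 13606 genes tested that were called higher and 7.2% called lower. After rIL-13, 4 were higher (the same Gja1, Pecam1, Flt1 and Cdh1) and 1, Kdr, was lower, beside 2.53% higher and 1.66% lower of all genes tested. DESeq2 called 8 after rIL-4, with Esam in place of Tie1, and 6 after rIL-13, with Ecscr added. Nothing is read from these counts, because the genes were selected with these contrasts known. The median log2 difference of the 10 was −0.66 after rIL-4 and 0.12 after rIL-13, beside 0.02 and 0.00 over all genes. Both contrasts share the PBS libraries. Without mouse 1 or 2 the rIL-13 count was 3, and without mouse 3 it was 2.

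The 24 other endothelial genes were set beside the 10 in macrophages. After rIL-4, 15 passed the filter on low counts, and edgeR called 0 higher and 4 lower: Itm2a (log2 −1.74 ± 0.48, adjusted p = 0.0379), Ptprb (−4.04 ± 0.99, 0.0221), Sox18 and Tek. A count of 0 higher among 15 is near the 6.77% called higher among all genes, of which 7.2% were called lower. In all, 6 had an unadjusted p under 0.05 and DESeq2 called 5. The 4 were scarce, and Ptprb had 14 to 58 counts after PBS and 0 to 5 after rIL-4. Ptprb was thus kept by the filter through libraries other than those of rIL-4, in which it was low, and its call supports nothing. Sox18 had 18, 11 and 10 counts after PBS and 0, 0 and 1 after rIL-4, and Tek had 13, 17 and 14 and then 1, 0 and 4. Sox18 and Tek reached 10 counts in PBS libraries alone and so entered the test through the group in which they were high, and their calls support nothing. The count fell to 0 without mouse 1, to 2 without mouse 2 and to 1 without mouse 3, 8, 9 or 10. Of the 15, Vwf alone had a positive difference (log2 1.48 ± 0.71, adjusted p = 0.204). The list median was −1.40 on the log2 scale, beside 0.02 over all genes tested. After rIL-13 edgeR called 0 of 15, with 5 at an unadjusted p under 0.05, and DESeq2 called 0. Vwf (0.66 ± 0.70) and Rasip1 (1.09 ± 1.08) had positive differences there, and Vwf and Rasip1 are named after their values were seen. Between the cytokines edgeR called 0 of 15, with 1 at an unadjusted p under 0.05, and DESeq2 called 0.

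The counts of each gene were also set against those of the 24 endothelial genes in the same library, as counts per 100 endothelial-list counts, to place macrophage values beside the proportion in the microglia libraries. Gja1 was at 1.29 to 7.72 in the 9 microglia libraries, at 8.54 to 21.0 in PBS macrophages and at 86.5 to 1751 in rIL-4 macrophages, so all 9 macrophage libraries exceeded the highest microglia library. The same held in 9 of 9 libraries for Kdr (0.948 to 3.83 in microglia, 54.5 to 83.6 in PBS macrophages) and for Cdh1 (0.00154 to 2.66 in microglia, 17 to 20.1 in PBS macrophages). Pecam1 exceeded the microglia range in 6 libraries, those given a cytokine, with 239.2 to 1161 after rIL-4 against 9.14 to 23.3 in microglia and 15.7 to 20.8 in PBS macrophages. Flt1 did so in 7, the 6 with a cytokine and 1 with PBS.

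Ecscr exceeded its microglia range of 1.29 to 4.16 in 6 macrophage libraries, at 13.8 to 18.7 after PBS and 5.69 to 8.50 after rIL-13. None of the rIL-4 libraries did, at 0.078 to 1.3. Cldn5 stayed below microglia in all 9 macrophage libraries, at 1.76 to 7.20 against 19.7 to 39.6. Esam was at 0.279 to 2.27 against 7.31 to 10.5, and Tie1 at 0.039 to 0.976 against 2.58 to 4.23, also in 0 of 9 libraries above. Cdh5 was above in 2. The proportion depends on the list, because Eng, Vwf and Abcb1a made up 43.9%, 27.8% and 6.76% of the list counts in macrophages. Without these 3, an alternative chosen after seeing the data, Cldn5, Esam and Tie1 were still above in 0 of 9 but lay below every microglia library in only 8, 7 and 6 of 9, with Cldn5 up to 27.0 against a microglia minimum of 26.4. Pecam1, Flt1 and Cdh5 were then above in all 9, the PBS libraries included, and Ecscr in 7. Gja1, Kdr and Cdh1 were above in 9 of 9 with either list. For the other 7 genes the placement thus depended on the list.

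**Figure D3:**
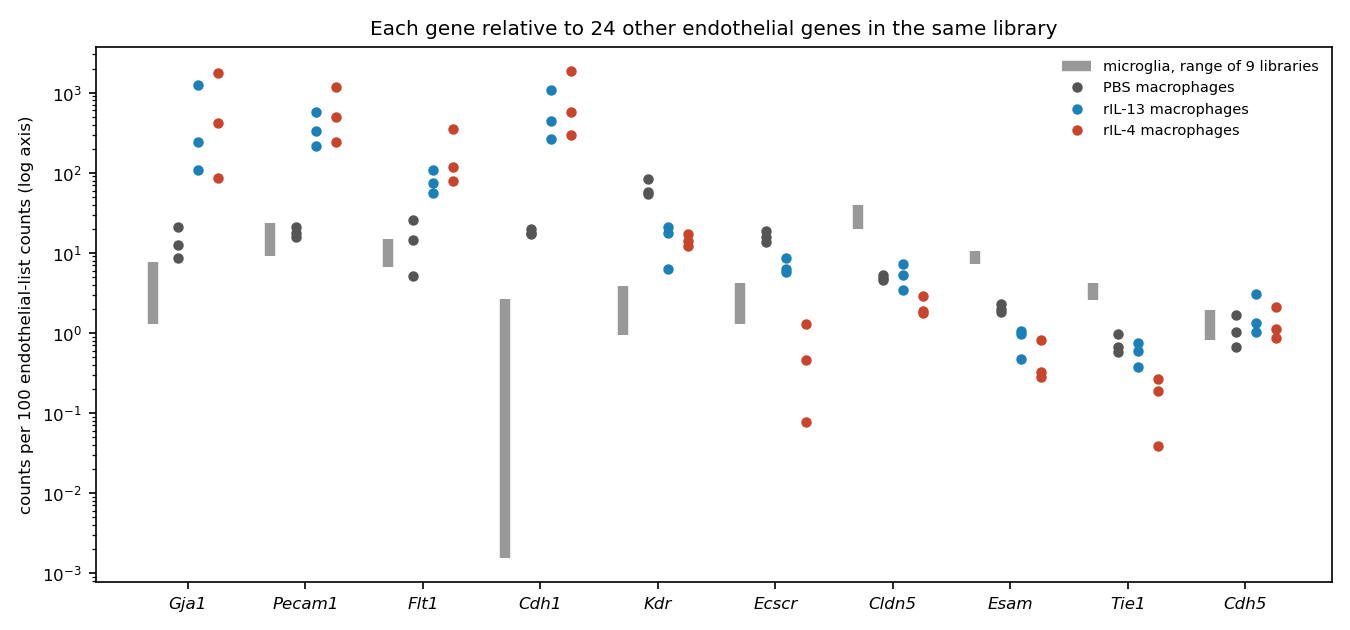
Counts of each gene per 100 counts of the 24 other endothelial genes in the same library, on a log axis. Grey bars span the 9 microglia libraries and points are macrophage libraries; Gja1, Kdr and Cdh1 lie above the bar in all 9 macrophage libraries, and Cldn5, Esam and Tie1 lie below it in all 9.

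Microglia against macrophages of the same treatment showed the other side of this split. After PBS, 9 of the 10 genes were higher in microglia, beside 24.5% of all genes tested, and Cdh1 was lower (log2 −3.73 ± 0.95, and −5.30 without mouse 1). After rIL-13, 8 were higher, beside 17.2% of all genes, and after rIL-4, 8 were higher, beside 13.4%. Cdh1 was lower in microglia in both (log2 −4.28 ± 0.53 and −2.79 ± 0.64). These levels were known when the genes were selected and carry no test. For Cldn5 the log2 difference was 7.68 ± 0.45 after PBS, 8.76 ± 0.39 after rIL-13 and 10.09 ± 0.27 after rIL-4. In the same order it was 7.55, 9.68 and 9.97 for Esam, 7.65, 8.71 and 10.51 for Tie1, 5.99, 5.45 and 5.57 for Cdh5 and 3.32, 4.67 and 7.79 for Ecscr. Leaving out 1 mouse took the rIL-4 values to 11.24 for Esam (mouse 8), 11.20 for Tie1 (mouse 10) and 8.68 for Ecscr (mouse 9), and the rIL-13 value of Cdh5 to 6.06 (mouse 7). For Pecam1 it was 4.83 ± 0.34, 1.77 ± 0.27 and 1.20 ± 0.31, and for Gja1 3.57 ± 0.38, −1.12 ± 0.79 and −1.49 ± 0.73 (−0.75 without mouse 9). Flt1 was at 4.76 (4.17 without mouse 1), 3.08 and 2.36 and Kdr at 1.26, 2.92 and 2.29. The gap between the cell types was thus narrow or turned for Gja1 and Pecam1 after a cytokine and wide for Cldn5.

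Among the 24 other endothelial genes, none of them among the 10, edgeR called 24 of 24 higher in microglia after PBS (median log2 7.10 beside 0.04 over all genes), 22 of 23 after rIL-13 (8.49) and 24 of 24 after rIL-4 (8.89). These counts and medians are a description, because 9 of the 24 did not pass the filter in the macrophage libraries and entered this contrast through the microglia libraries in which they were high. At the lowest p after PBS were Tek (log2 7.68 ± 0.28, adjusted p = 1.56e-06), the angiopoietin receptor, and Egfl7 (7.01 ± 0.32, 3.04e-06), an endothelial secreted factor. In the same mouse, the macrophage level of this list was 1.00% to 3.05% of the microglia level. Cldn5 was at 0.0749% to 0.747%, Esam at 0.0293% to 0.727%, Tie1 at 0.0257% to 1.01% and Cdh5 at 1.03% to 3.68%, so Cldn5 and Esam were below the lowest share of the list in every mouse. Tie1 was below it in 8 of 9 mice and at 1.01% in mouse 3, and Cdh5 lay in or above the range of the list. Without Eng, Vwf and Abcb1a the list was at 0.20% to 0.968%, an alternative chosen after seeing the data, and the shares of Cldn5, Esam and Tie1 overlapped that range. Pecam1 was at 2.75% to 52.5% and Gja1 at 6.27% to 395.8%.

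In microglia the 10 genes were tested against PBS, in libraries other than those of the macrophage contrasts but from the same mice. It is not known whether these contrasts were also in view when the genes were selected, so the p-values are no independent support. After rIL-4, 1 of the 10 was called, beside 2.22% of the 15566 genes tested. This was Cdh1, at 1.64, 0.367 and 0.0230 CPM after PBS (1 count in mouse 3) and 14.1, 72.5 and 43.9 CPM after rIL-4. The groups did not overlap, and the rise was 6.05 ± 1.15 on the log2 scale, 66.1-fold (edgeR, adjusted p = 0.0295, range over the alternatives 3.51e-08 to 0.13). With 67, 17 and 1 counts after PBS, Cdh1 was kept by the filter through the cytokine libraries in which it was high. Its call is thus a description and supports nothing. The fold rests on few PBS counts, and the log2 difference was 7.79 without mouse 1 and 5.45 without mouse 9. The call was lost without mouse 2 (adjusted p = 0.13), 3 (0.0731), 9 (0.0715) or 10 (0.0677). After rIL-13, Cdh1 was at 5.52, 11.1 and 15.7 CPM, also above every PBS library, with a log2 difference of 4.01 ± 1.05 that did not pass edgeR (adjusted p = 0.287; 5.76 without mouse 1).

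Genes at higher levels in macrophages than in microglia were set beside Cdh1. Of these, Chil3 and Mrc1 belong to a list of 6 cytokine response genes. In microglia after rIL-4, edgeR called all 6 higher, beside 2.22% of all genes called. Their shares thus cannot separate macrophage RNA from a response of the microglia. After rIL-4 the microglia level of Cdh1 was 7.88%, 14% and 19.6% of the level in the macrophages of mice 8, 9 and 10. For Chil3, a chitinase-like gene of the cytokine response, it was 13.6%, 18% and 22.1%, and for Ly6c2 11.2%, 6.53% and 12.8%. After rIL-13 the shares were 4.61%, 3.28% and 8.73% for Cdh1, 8.11%, 8.42% and 9.08% for Chil3, and 4.54%, 3.16% and 7.79% for Ly6c2. The mannose receptor gene Mrc1 was at 13.1%, 22% and 27.3% after rIL-4 and 10.4%, 15.9% and 10.9% after rIL-13. The sum of the 6 monocyte-derived macrophage genes was at 41.3%, 18.2% and 34.5% after rIL-4 and 24.5%, 10.7% and 16% after rIL-13. The shares of Cdh1 were close to those of Ly6c2 after rIL-13. After rIL-4 they were below Ly6c2 in mouse 8 and above it in mice 9 and 10. They were below those of Chil3, Mrc1 and the list in all 6 mice. The part of macrophage RNA in the Cdh1 result was not tested.

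The other 9 genes did not pass the edgeR test in microglia after rIL-4. Kdr was at 101, 65.9 and 57.2 CPM after PBS and 32.8, 28.2 and 28.5 CPM after rIL-4, without overlap (log2 −1.30 ± 0.32, adjusted p = 0.0834). It passed with at least 10 counts required in every library (0.0413), with only the 6 libraries compared (0.0426) and with DESeq2 (0.00304). Ecscr was at 97.2, 78.4 and 60.7 CPM after PBS and at 51.7, 38.5 and 38.9 CPM after rIL-4 (log2 −0.85 ± 0.22, adjusted p = 0.0964). The rIL-4 values of both genes lay below all PBS values. In the same microglia libraries the microglia list summed to 1257 to 2310 CPM after rIL-4 against 3748 to 7052 CPM after PBS, with 3 of 8 called lower by edgeR and 6 by DESeq2. Over all genes, edgeR called 2.22% and DESeq2 9.49% in either direction. The 11 pericyte and fibroblast genes all had negative differences (median log2 −1.90, 1 called by edgeR) and summed to 232.3 to 1514 against 2375 to 3252 CPM, and the part of these lists in the Kdr and Ecscr values was not tested. Pecam1 was at 334, 274 and 137 CPM after PBS and 457, 621 and 420 CPM after rIL-4, above all PBS values (log2 1.04 ± 0.31, adjusted p = 0.144). DESeq2 called Ecscr (0.0121) and Pecam1 (0.0236) as well, so that it called 4 of the 10, beside 9.49% of the genes to which it gave an adjusted p. With edgeR 6 were at an unadjusted p under 0.05, beside 16.4% of all genes.

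Flt1 in microglia was at 233, 164 and 131 CPM after PBS, 194, 188 and 363 CPM after rIL-13 and 271, 410 and 293 CPM after rIL-4 (log2 0.91 ± 0.31 for rIL-4, adjusted p = 0.184 with edgeR). Cldn5 was at 747, 493 and 294 CPM after PBS, 870, 552 and 1128 CPM after rIL-13 and 826, 1080 and 910 CPM after rIL-4 (log2 0.90 ± 0.34, adjusted p = 0.23). The rIL-4 values lay above the PBS values for both genes and overlapped those of rIL-13. Esam (126 to 249 CPM after PBS, 219 to 267 CPM after rIL-4), Tie1 (44.1 to 91.8 and 77.5 to 95.3 CPM), Cdh5 (22.6 to 39.2 and 21.1 to 29.3 CPM) and Gja1 overlapped between these groups, with log2 differences of 0.32, 0.29, −0.31 and 0.14.

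After rIL-13, edgeR called 0 of the 10 in microglia, beside 0.366% of all genes tested, with 2 at an unadjusted p under 0.05 (Pecam1 and Cdh1), beside 7.76%, and DESeq2 called 1 (Cdh1), beside 2.66%. Pecam1 was at 367, 444 and 568 CPM after rIL-13, above every PBS library (log2 0.90 ± 0.31, adjusted p = 0.516). The other genes differed from PBS by 0.74 (Cldn5), 0.51 (Flt1), 0.48 (Esam), 0.40 (Tie1), 0.10 (Gja1), −0.05 (Cdh5), −0.27 (Ecscr) and −0.69 (Kdr). Between rIL-4 and rIL-13, edgeR called 0 of 10, beside 0.0385% of all genes, with 1 at an unadjusted p under 0.05 (Ecscr, log2 −0.58 ± 0.22), beside 11.4%, and DESeq2 called 0, beside 4.76%. Cdh1 (2.03 ± 0.94) and Kdr (−0.61 ± 0.32) did not pass, and the other 7 differed by −0.26 (Cdh5) to 0.40 (Flt1), with Gja1 at 0.05, Pecam1 at 0.14, Cldn5 at 0.16, Esam at −0.16 and Tie1 at −0.11. The median log2 difference of the 10 from PBS was 0.31 after rIL-4 and 0.44 after rIL-13, beside −0.06 and 0.00 over all genes. Of the 24 other endothelial genes, edgeR called 1 in microglia after rIL-4, beside 2.22% of all genes. This was Plvap, a protein of fenestrated endothelium that fell (log2 −3.01 ± 0.57, adjusted p = 0.029). This call was lost without mouse 1 (0.127), 2 (0.107), 3 (0.0578), 8 (0.0758) or 10 (0.0698). After rIL-13 it called 0 of 24, with 3 at an unadjusted p under 0.05, and DESeq2 called 3.

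**Figure D4:**
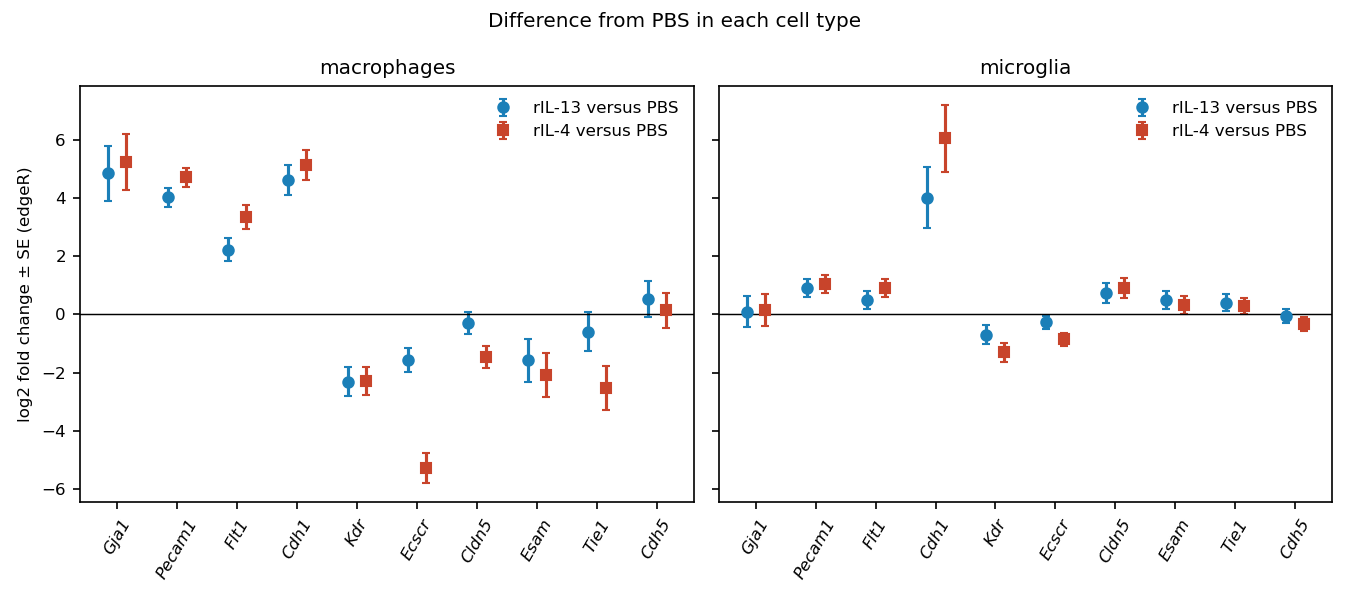
Log2 difference from PBS (edgeR, bars are SE) of the 10 genes in macrophages, left, and microglia, right, for rIL-4 and rIL-13, with 3 libraries a group. In macrophages Gja1, Pecam1, Flt1 and Cdh1 lie above 0 and Kdr and Ecscr below it; in microglia Cdh1 lies farthest above 0.

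The contrast of the cytokines in macrophages uses the libraries whose values were known when the genes were selected, so it too is a description of the 10. Ecscr was lower after rIL-4 than after rIL-13, by a log2 difference of −3.72 ± 0.50. Flt1 (1.12 ± 0.37), Pecam1 (0.69 ± 0.29), Cdh1 (0.52 ± 0.43), Gja1 (0.39 ± 0.79) and Kdr (0.02 ± 0.48) had positive differences. Cldn5 (−1.18 ± 0.37), Tie1 (−1.92 ± 0.76), Esam (−0.49 ± 0.77) and Cdh5 (−0.39 ± 0.60) had negative ones. Of the 10, 1, Ecscr, had an adjusted p under 0.05, beside 0.25% of all genes tested, and nothing is read from this count. It was 0 without mouse 5, 8 or 10, with only the 6 libraries compared and with at least 10 counts asked of every library. Of the microglia list, edgeR called 4 of 8 lower after rIL-4 than after rIL-13, beside the 0.25% of all genes called. Among them were Cx3cr1 (log2 −2.65 ± 0.27, adjusted p = 0.0122) and Tmem119 (−2.05 ± 0.23, 0.0158). Cx3cr1 was lost without mouse 8 (0.0586) or 9 (0.0506) and Tmem119 without mouse 8 (0.0586), 9 (0.0506) or 10 (0.0851).

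Other junction genes were counted in the same way. Of 28 genes of gap, tight and adherens junctions, 19 could be tested in macrophages, and after rIL-4 edgeR called 0 higher and 6 lower, beside 6.77% higher and 7.2% lower among all genes, with 9 at an unadjusted p under 0.05 in either direction, and DESeq2 called 9. Among these was Ctnnb1, the catenin that binds cadherins, at 185.7 to 266 CPM after PBS and 282.3 to 470.5 CPM after rIL-4, without overlap (log2 0.76 ± 0.23; edgeR, adjusted p = 0.0571). Of the 19, 6 had a positive difference, up to 2.39 ± 1.3 for the connexin Gja5 (adjusted p = 0.267); Ctnnb1 and Gja5 are named here after their values were seen. At the lowest p were the adhesion molecules Jam2 (log2 −4.05 ± 0.33, adjusted p = 7.54e-05) and F11r (−1.52 ± 0.14, 0.000138) and the actin linker Vcl (−1.27 ± 0.18, 0.0014), and the tight junction scaffold Cgn was the fourth. Cgn had 9 to 12 counts after PBS and 0 to 1 after rIL-4, and Jam3, also called, 12 to 17 and 0 to 1, so both entered the test through libraries in which they were high and their calls support nothing. Jam2 and F11r were themselves higher in microglia than in macrophages after PBS (log2 3.12 ± 0.27 and 0.85 ± 0.17). They were lower in the macrophage libraries in which all 8 microglia-list genes were lower, and the part of those genes in these values was not tested. After rIL-13 edgeR called 3 lower, F11r (−0.83 ± 0.14, 0.00882), Jam2 (−1.68 ± 0.29, 0.0109) and Vcl (−0.72 ± 0.18, 0.049), beside 1.66% of all genes called lower. The call was lost for Jam2 without mouse 3 (0.0598) or 7 (0.0522) and for Vcl whichever of the 6 mice was left out. Jam2 was also lower after rIL-4 than after rIL-13 (−2.36 ± 0.32, 0.0201; lost without mouse 5, 8, 9 or 10). In microglia after rIL-4, 1 of 25 was called, beside 2.22% of all genes. This was Vcl (−1.28 ± 0.26, 0.0362), lost without mouse 1, 2, 3, 8 or 10. After rIL-13 edgeR called 0 of 25, with 0 at an unadjusted p under 0.05, and DESeq2 called 0. Cdh2, N-cadherin, had at most 19 counts in any macrophage library, unlike Cdh1.

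As a description, the 3 genes most like each member were found by Pearson correlation of log2(CPM + 1) over the 9 libraries of a cell type, which share treatment groups and mice. In macrophages Pecam1 was most like Msx3 (0.997), Il4i1 (0.997) and Cdh1 (0.996), and Cdh1 most like Matk (0.997), Pecam1 (0.996) and Msx3 (0.995). Gja1 was most like Cystm1 (0.994), Adora2b (0.994) and Ms4a4a (0.992), and Flt1 most like Ldha (0.989), Ssr2 (0.986) and Pdlim1 (0.984). Kdr was nearest to S1pr2 (0.989), Zranb3 (0.982) and Slamf7 (0.981), and Ecscr to Htra3 (0.989), Cx3cr1 (0.989) and Tmem119 (0.988). The genes near Ecscr thus included 2 of the microglia list, and those near Pecam1 and Cdh1 included each other. For the scarce Cldn5 the highest value was Ctnna1 (0.948), for Esam Ank (0.99), for Tie1 Bhlhb9 (0.961) and for Cdh5 Prdm16 (0.95), and the third nearest of Tie1 was Gpr34 (0.935), also of the microglia list. In microglia the nearest gene was Higd1a for Gja1 (0.934), Impdh1 for Pecam1 (0.982), Pde8a for Flt1 (0.946), Ache for Kdr (0.962), Sfxn3 for Cdh1 (0.988) and Slc3a2 for Cdh5 (0.931). It was Pnkd for Cldn5 (0.968), Kctd10 for Esam (0.97), Hspb1 for Ecscr (0.959) and Esam for Tie1 (0.935). Of the endothelial list, Cyyr1 was the third nearest of Pecam1 (0.966).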

How the data were processed

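The authors aligned paired-end reads to GRCm38 with STAR 2.5.3a and deposited expected counts per gene from RSEM 1.3.0, not normalised, without use of strand. The expected counts were rounded to whole numbers. Libraries were scaled by TMM and genes were kept by filterByExpr. Groups were compared by the edgeR 4.0.16 quasi-likelihood test in R 4.3.3, for each cell type on its 9 libraries as the study did, and for microglia against macrophages on the 6 libraries of a treatment. The Benjamini-Hochberg adjustment ran over all genes kept, and 0.05 was the threshold. The test was tested on simulated data. CPM used TMM factors from all 18 libraries, whereas each test ran its own filter and TMM on the libraries it used. Levels per kb used the summed exon length. Promoters came from RefSeq and tables were joined in Python 3.11.15 with pandas 2.3.3.

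The 10 genes and all lists were chosen with earlier results of these data known. From the microglia list 1 gene is not reported here and enters no sum or count of that list. The text names all 10 in each comparison, and from each list the up to 4 genes with the lowest p among those called. Each mouse gave both cell types, so the mouse is a true pair. The correlation of deviations of paired libraries was 0.0643 to 0.249, over 0.1 in most mice. Replicates differed by more than sampling noise (chi-square per degree of freedom 40.7 to 345.0), and each is a separate mouse. Total counts were 35961305 to 45849829 a library, and intervals on counts cover counting error only, since reads without molecular identifiers are not independent molecules. Alternatives were DESeq2 size factors, DESeq2 1.42.0, no filter and a filter of 10 counts, each mouse left out, the mouse as a block, the 6 compared libraries alone and all 18 together. Leaving out the macrophages of mice 6 and 9, and leaving Eng, Vwf and Abcb1a out of the endothelial list, were chosen after seeing the data.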

Additional observations from a re-analysis of the deposited data

Results flagged for a closer look

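On the log2(CPM + 1) scale, every rIL-4 library moved below the PBS mean in macrophages and above it in microglia for Cldn5, Esam and Tie1, and every rIL-13 library did so for Cldn5 and Esam. The difference between the cell types was not tested, and the share of all genes that meet this rule was not counted. Cldn5 after rIL-13 overlapped PBS in both cell types, and its macrophage log2 difference was 0.02 without mouse 1. Esam and Tie1 overlapped PBS in microglia. After rIL-4, Cldn5 moved by −0.842 in macrophages and 0.9664 in microglia, a difference of −1.808, and after rIL-13 by −0.1803 and 0.7728, a difference of −0.9531. For Esam the values were −0.7002 and 0.3466 after rIL-4, a difference of −1.047, and −0.5796 and 0.4505 after rIL-13, a difference of −1.03. Tie1 after rIL-4 moved by −0.3498 in macrophages and 0.3226 in microglia, a difference of −0.6724. The macrophage values rest on at most 3.39 CPM of Cldn5 and on fewer counts of Esam and Tie1.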

How the results depend on the processing

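Depth limited Esam, Tie1, Cdh5 and, after rIL-4, Ecscr in macrophages most. With the mouse as a replicate block, genes called between cell types were 5912 against 6014 after PBS, 3538 against 3710 after rIL-13 and 2790 against 3174 after rIL-4, with members called unchanged at 10, 9 and 9 and endothelial list genes called at 24, 23 and 23. DESeq2 raised genes called to 1111 (rIL-13) and 399 (rIL-4 against rIL-13) in macrophages and to 1478 (rIL-4), 414 (rIL-13) and 741 (rIL-4 against rIL-13) in microglia, members called in microglia to 4 (rIL-4) and 1 (rIL-13), and endothelial list genes called there to 3, 3 and 1. All 18 libraries in a single model gave 1053, 257 and 70 genes called in macrophages and 949, 172 and 138 in microglia, 1 of the members called in microglia after rIL-13, and 1 (macrophages, rIL-13) and 0 (microglia, rIL-4) endothelial list genes called. The 6 compared libraries alone gave 7 genes called between the cytokines in macrophages and 37 (rIL-13) and 0 (rIL-4 against rIL-13) in microglia, members called at 0 between the cytokines in macrophages and at 2 in microglia after rIL-4, and 0 endothelial list genes called there. Without a filter 209 genes called were found between the cytokines in macrophages, and 1 of the endothelial list genes called in microglia after rIL-13. At least 10 counts in every library, which leaves fewer genes tested, gave 0 genes called between the cytokines in microglia, 0 members called between them in macrophages, and endothelial list genes called at 2 after rIL-4 in macrophages, 2 and 2 in microglia, and 13, 6 and 8 between cell types after PBS, rIL-13 and rIL-4. Without the macrophages of mice 6 and 9, genes called numbered 900 (rIL-13) and 10 (rIL-4 against rIL-13) in macrophages, and Kdr between the cytokines was −0.11. Cdh5 relative to the list was above microglia in 1 macrophage library without Itm2a and in 9 without Eng, Vwf and Abcb1a. Leaving out single mice, genes called ranged from 1041 to 1614 (rIL-4), 199 to 529 (rIL-13) and 1 to 23 (rIL-4 against rIL-13) in macrophages, from 75 to 269, 22 to 51 and 0 to 15 in microglia, and from 1197 to 3606 and 1798 to 2548 between cell types after rIL-13 and rIL-4. Members called ranged from 2 to 5 (macrophages, rIL-13), 0 to 1 (macrophages, rIL-4 against rIL-13) and 0 to 1 (microglia, rIL-4), and endothelial list genes called from 0 to 2 in macrophages and 0 to 1 in microglia after rIL-4. Differences of the 10 genes that changed sign without a mouse were, for macrophages against PBS, Cdh5 (−0.24 to 0.40 after rIL-4, −0.13 to 0.89 after rIL-13) and Cldn5 (−0.50 to 0.022, rIL-13); for rIL-4 against rIL-13 in macrophages, Gja1 (−0.73 to 1.66), Kdr (−0.41 to 0.34), Cdh1 (−0.088 to 1.01) and Cdh5 (−0.77 to 0.26); for microglia against PBS, Gja1 (−0.29 to 0.65 after rIL-4, −0.66 to 0.61 after rIL-13) and Cdh5 (−0.26 to 0.10, rIL-13); and between the cytokines in microglia, Gja1 (−0.39 to 0.80), Pecam1 (−0.049 to 0.32), Cldn5 (−0.075 to 0.42), Esam (−0.35 to 0.24) and Tie1 (−0.30 to 0.091). The cause of these shifts was not tested.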
